A study of Mus musculus with 12 samples.

Results

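The genes described here are 250 mouse gene symbols that consist of Gm followed by a number, the provisional form of name given to gene models that have no established name. Among 6780 such symbols off the sex chromosomes, each measured by a transcript cluster that the platform annotation pairs with exactly 1 symbol, they are the 250 with the highest mean log2 signal over 12 arrays. Among those symbols they were chosen by that level, under a rule set with earlier results of these data known. RNA was taken from the quadriceps of 6-week-old male C57BL/10 mice that carried utrn+/-;mdx, so every group, untreated mice included, lacked normal dystrophin and was heterozygous for a utrophin mutation. In 3 groups of 3 mice treatment ran from 4 to 6 weeks of age: prednisolone, a glucocorticoid, at 1.5 mg/kg per day in drinking water; spironolactone, a mineralocorticoid receptor antagonist, at 100 mg/kg per day with lisinopril, an inhibitor of angiotensin-converting enzyme, at 20 mg/kg per day in medicated pellets; and eplerenone, another mineralocorticoid receptor antagonist, at 200 mg/kg per day with the same dose of lisinopril in pellets. The 3 untreated mice ate normal chow. No healthy muscle and no drug-free pellet group were compared here, and each mouse had its own array.

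Most gene models with such names are not ordinary protein-coding genes. Pseudogenes are copies of genes that have lost the ability to make the original protein, and many arose when a spliced messenger RNA was copied back into the genome, so that they stay close in sequence to an abundant messenger. Small nuclear RNAs (snRNAs) are the RNA parts of the spliceosome, which removes introns, and their genes lie in many near-identical copies across the mouse genome. Small nucleolar RNAs (snoRNAs) guide chemical modification of ribosomal and other RNAs. An array probe that matches several such copies cannot tell them apart, or tell a copy from its parent messenger, so each value below belongs to a cluster of probes and is uncertain as a measure of its named locus alone.

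All 250 symbols were found in RefSeq (GRCm38.p6), which types 158 as pseudogenes, 5 as transcribed pseudogenes, 76 as snRNAs, 8 as snoRNAs, 2 as long non-coding RNAs (lncRNAs) and 1 as a ribosomal RNA (rRNA). None is typed as protein-coding, whereas 500 of the 6530 dimmer Gm-numbered symbols are. The members lie on 19 chromosomes, with 6 to 22 on each. Their mean log2 levels ran from 16.16 to 19.92 with a median of 17.20, against a median of 5.76 over all 30412 clusters that carry exactly 1 symbol. Since the members were selected on this level, it is a description with no test, and it fixes no difference between groups. The 3 members just inside the limit, Gm25173, Gm25211 and Gm26324, had a mean of 16.16, and Gm23732 just outside it had the same 12 values, so the order of cluster identifiers decided between them. The next symbols outside were Gm26110 and Gm12164, both at 16.14.

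**Figure D1:**
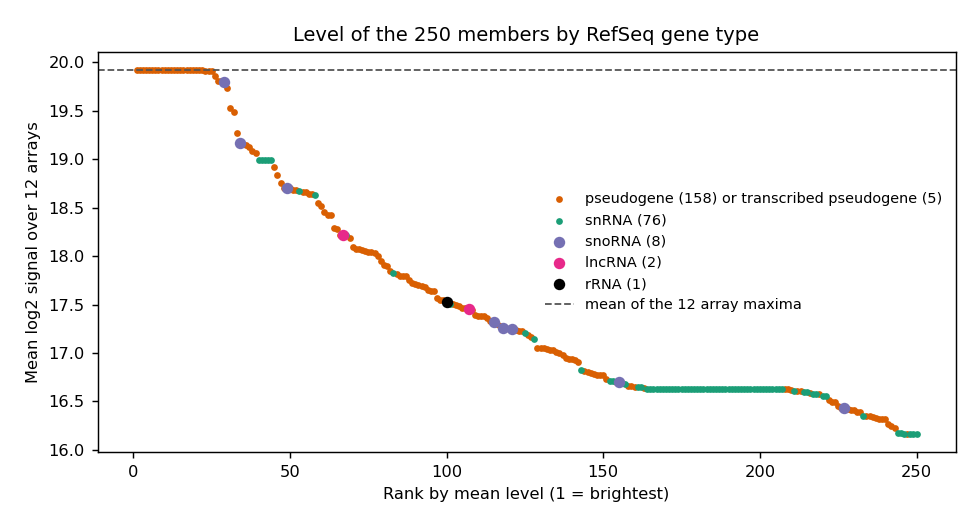
Mean log2 signal over 12 arrays (vertical axis) of the 250 members by rank (horizontal axis), coloured by RefSeq gene type, with a dashed line at the mean of the 12 array maxima. The brightest pseudogenes form a flat run on that line, and a long flat run of snRNAs near 16.63 is 44 members that share the same 12 values.

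Many members could not be told from each other or from well-known genes. Compared to 6 decimals, the 250 members held 188 distinct profiles of 12 values, and 72 members fell into 10 shared profiles. The largest was held by 44 snRNAs of 107 bases on 17 chromosomes, Gm23934 first among them, and by Rnu6, the gene of the U6 snRNA that sits at the catalytic centre of the spliceosome. Another 5 snRNAs of 164 bases, Gm22068 first among them, shared their values with Rnu1a1, a gene of the U1 snRNA that recognises the start of an intron. Gm24312, the rRNA member, shared its values with n-R5s106, n-R5s118 and n-R5s130, which are ribosomal RNA genes.

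The 10 brightest members all sat at the top of the array's scale. Of these, 8 pseudogenes (Gm10222, Gm10925, Gm13292, Gm4609, Gm12537, Gm5559, Gm10359 and Gm10284) held a profile identical to that of Acta1 (skeletal muscle actin), Myh4 (a fast myosin heavy chain), Myl1 (a myosin light chain), the non-coding RNA Rn7sk and the mitochondrial rRNA mt-Rnr1. In that profile the 12 values were the highest of their arrays to within 1e-05. Gm10327 and Gm13394 were next. In all, 23 members, every one a pseudogene, lay within 0.05 of the array maximum on all 12 arrays, and their differences between prednisolone and untreated mice were 0.003 to 0.019. Array maxima ran from 19.91 to 19.93, so these members show no more than the movement of the maximum itself.

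Prednisolone mice, set against untreated mice, had higher signals in a group of pseudogenes. In all, 39 of the 250 members rose past the threshold (limma, adjusted p under 0.05 over all 30412 clusters), which is 15.6% of them, where 3.22% of all clusters rose. No member fell past the threshold, where 3.17% of all clusters did and 6.39% passed in either direction. At an unadjusted p under 0.05, 58 members were higher and 28 lower, where 10.9% of all clusters were higher and 10.8% lower. With quantile normalization, 28 members passed at an adjusted p under 0.05 (limma), 25 higher and 3 lower, where 1993 of all 30412 clusters passed. All 39 are pseudogenes, each with a profile of its own, on 16 chromosomes, and in all 39 the prednisolone arrays lay above every untreated array. Groups did not overlap in 140 of the 250 members, 62 higher and 78 lower, where 26.7% of all clusters had no overlap. Counted once per distinct profile, the lower ones came to 28 and the higher ones stayed at 62, since the 78 hold the shared snRNA profiles repeatedly. The 39 log2 rises ran from 0.34 to 1.00 with a median of 0.60, and the median over all clusters was -0.01. Among the 180 other symbols at least as bright as the dimmest member, 11 rose and 12 fell, and among 2929 dimmer Gm-numbered pseudogenes 207 rose (7.07%) and 34 fell (1.16%). The arrays decided this count: it was 3 without prednisolone replicate 2, 4 without prednisolone replicate 1, 6 without untreated replicate 2 and 20 without untreated replicate 3. It was 0 when only the 2 groups compared entered the fit. Calls in either direction among all 30412 clusters, 1942 in the main fit, were 456, 656, 938, 842 and 584 in the same order. With 3, 4, 6 or 0 members past the threshold, their share was below that of all clusters. All 39 differences stayed positive in each of these fits, with medians of at least 0.49. Their signs could not change there, since the arrays of the 2 groups did not overlap in any of the 39.

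Gm5652, a pseudogene of 1225 bases on chromosome 12, had the largest rise. Its log2 signal was 16.97, 17.13 and 16.57 in prednisolone mice, 16.17, 16.43 and 16.35 with spironolactone plus lisinopril, 16.08, 16.48 and 16.35 with eplerenone plus lisinopril, and 16.13, 15.54 and 15.99 in untreated mice. The prednisolone arrays stood above all 9 others, and untreated replicate 2 was lowest. The difference was 1.00 ± 0.18 (log2, SE; n = 3 per group; adjusted p = 0.011 by limma), a fold of 2.00 on the deposited scale. Gm8174, of 1218 bases on chromosome 15, had 17.22, 17.46 and 16.73 in prednisolone mice and 16.44, 16.05 and 16.32 in untreated mice, a rise of 0.86 ± 0.18. Gm5787, of 1256 bases on chromosome 8, had 16.92, 17.15 and 16.66 in prednisolone mice and 16.26, 15.83 and 16.12 in untreated mice, a rise of 0.84 ± 0.15. Both again had no overlap, with prednisolone replicate 3 nearest to the untreated arrays. The other members among the 10 largest rises were Gm3809 at 0.81, Gm11557 at 0.81, Gm9081 at 0.78, Gm3695 at 0.77, Gm8825 at 0.73, Gm5210 at 0.73 and Gm12416 at 0.71. Adjusted p over these 7 ran from 0.0143 to 0.0353 (limma). Gm5210 is the exception in size, a RefSeq pseudogene of 11617 bases on chromosome 15, where the other 9 span 1214 to 1256 bases.

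**Figure D2:**
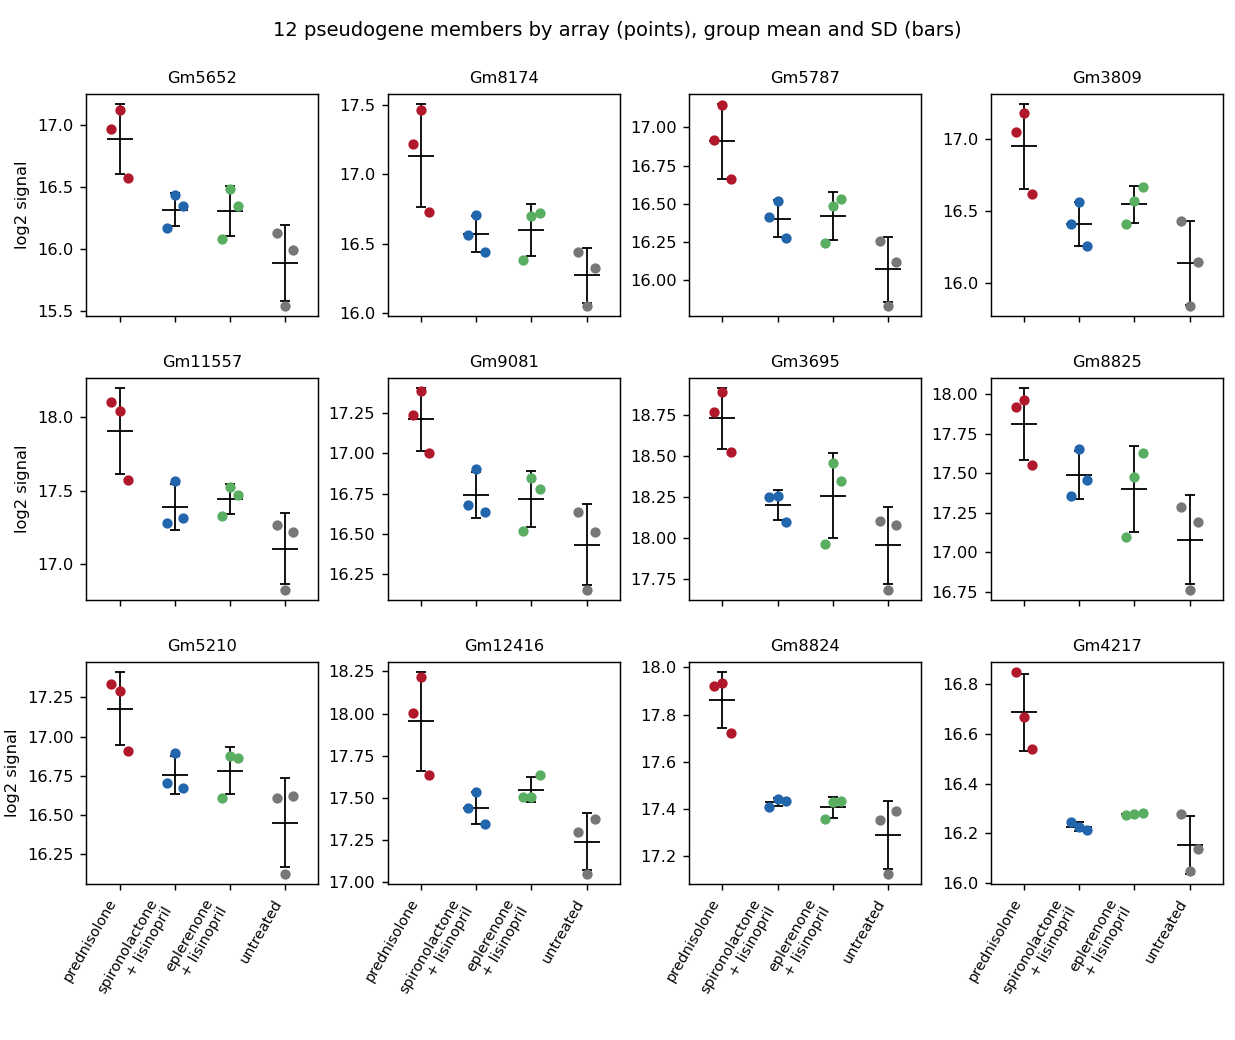
Log2 signal on each array (points, vertical axis) with group mean and SD (bars) for the 10 members with the largest prednisolone rises and for Gm8824 and Gm4217, by group on the horizontal axis. In each panel the prednisolone arrays lie above the untreated arrays, the means of both combination groups lie between, and untreated replicate 2, the middle point of its group, is lowest.

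The smallest p-values belonged to members with smaller rises and tighter groups. Gm8824, of 1204 bases on chromosome 16, had 17.92, 17.94 and 17.72 in prednisolone mice, 17.41, 17.44 and 17.43 with spironolactone plus lisinopril, 17.36, 17.43 and 17.43 with eplerenone plus lisinopril, and 17.35, 17.13 and 17.39 in untreated mice. Its rise was 0.57 ± 0.09 (adjusted p = 0.00681 by limma). Gm4217, of 1219 bases on chromosome 15, had 16.85, 16.67 and 16.54 in prednisolone mice, 16.25, 16.22 and 16.21 with spironolactone plus lisinopril, 16.28, 16.28 and 16.28 with eplerenone plus lisinopril, and 16.28, 16.05 and 16.14 in untreated mice. The 3 lower groups lay together and the prednisolone arrays stood apart, with a rise of 0.53 ± 0.09 over untreated (adjusted p = 0.00893 by limma). These 2 were also the members that passed the F-test of any difference between the 4 groups, with adjusted p of 0.031 and 0.0374 (limma); 1.93% of all clusters passed it. The other 8 members with the smallest F-test p, among them Gm5787, Gm5652, Gm2383, Gm11953, Gm3200, Gm8330 and Gm3671, had adjusted p from 0.0534 to 0.0694 in that test (limma).

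The rising pseudogenes were alike in size. RefSeq lengths of all 163 pseudogene members ran from 67 to 11617 bases with a median of 1073, and 31 of the 39 that rose lay between 1150 and 1300 bases. This window was set after the values were seen, so what follows is a description. It holds 63 members, of which 17 were within 0.05 of the array maximum. All 46 others were higher in prednisolone mice than in untreated mice, with a median of 0.52 and a range of 0.004 to 1.00, and the 15 of them that did not pass had adjusted p from 0.051 to 0.981 (limma). Brightness went with this too, since 7 of those 15, and 5 of the 39 that rose, had a mean level above 19, close to the top of the scale. In the 93 distinct profiles of pseudogenes of other lengths below the maximum, 44 were higher and 49 lower, with a median of -0.02.

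**Figure D3:**
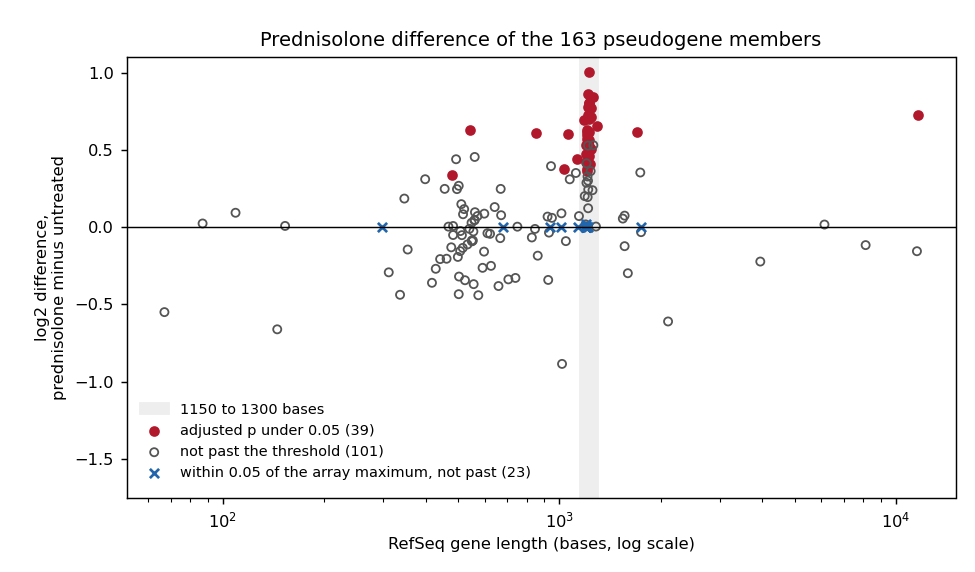
Log2 difference between prednisolone and untreated mice (vertical axis) against RefSeq gene length in bases on a log scale (horizontal axis) for the 163 pseudogene members. Of the 39 past the threshold (filled), 31 lie between 1150 and 1300 bases (shaded), and the 23 members within 0.05 of the array maximum (crosses) lie on 0.

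The 8 members that rose and lie outside the window spanned 481 to 11617 bases, with rises of 0.34 to 0.73. Gm5239, of 481 bases on chromosome 18, had the smallest rise of the 39, with 17.52, 17.38 and 17.34 in prednisolone mice and 17.04, 17.13 and 17.06 in untreated mice (0.34 ± 0.08). Gm11625, of 542 bases on chromosome 11, had 17.62, 17.70 and 17.48 in prednisolone mice and 17.25, 16.94 and 16.74 in untreated mice (0.63 ± 0.13). Gm2383, of 1031 bases on chromosome 1, had 16.87, 16.76 and 16.62 in prednisolone mice and 16.41, 16.40 and 16.33 in untreated mice (0.37 ± 0.08). In each of these 3 the groups did not overlap.

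RefSeq now gives 11 of the members another symbol, made from the name of a gene and a suffix for pseudogene. The member that rose among them was Gm1840, now Gpi-ps, named after the glycolytic enzyme glucose phosphate isomerase. Its log2 signal was 18.19, 18.08 and 17.84 in prednisolone mice, 17.60, 17.72 and 17.41 with spironolactone plus lisinopril, 17.75, 17.88 and 17.89 with eplerenone plus lisinopril, and 17.56, 17.25 and 17.45 in untreated mice. The rise with prednisolone was 0.62 ± 0.12 (adjusted p = 0.0144 by limma). Gapdh-ps14 (Gm2193) and Gapdh-ps16 (Gm3272), named after the glycolytic enzyme glyceraldehyde-3-phosphate dehydrogenase, are 1218 and 1201 bases long. Gm2193 had 18.60, 18.52 and 18.51 in prednisolone mice and 18.40, 18.08 and 18.41 in untreated mice, a difference of 0.24 ± 0.09 that did not pass (adjusted p = 0.15 by limma). Gm3272 lay at the array maximum, and the cluster of Gapdh itself had a mean of 19.79 and spanned 0.02 over the 12 arrays, so both lay close to the top of the scale.

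The other renamed members did not pass in the prednisolone comparison. Those named after ribosomal protein genes had differences of -0.37 for Gm8430 (Rps27a-ps3), -0.19 for Gm10186 (Rps23-ps2), -0.14 for Gm6404 (Rpl34-ps2) and -0.07 for Gm10020 (Rpl15-ps6). Those named after respiratory chain genes had 0.25 for Gm15920 (Ndufa12-ps) and 0.19 for Gm10012 (Cox7c-ps1), where the clusters of Ndufa12 and Cox7c themselves had 0.23 and 0.04. Gm1821 (Ubb-ps, after a ubiquitin gene) had -0.04 and Gm10713 (Eif1-ps1, after a translation initiation factor) had 0.24. Gm10713 is 1254 bases long, so the length window holds copies of more than 1 gene.

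The 39 members moved together over the arrays. Over all pairs of the 39 the Pearson r across 12 arrays had a median of 0.92 and ran from 0.59 to 0.99. These points share arrays and treatment, and the 39 were picked for a group difference on the same arrays. A high r is therefore built in, and it is only a description. Untreated replicate 2 was the lowest of the 12 arrays in 35 of the 39, and prednisolone replicate 3 was the lowest of its group in all 39. In both combination groups all 39 had a mean above that of untreated mice, with medians of 0.18 for spironolactone plus lisinopril and 0.17 for eplerenone plus lisinopril, and none of them passed in either comparison (limma). The 3 comparisons share the untreated arrays, so their signs are not independent.

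Markers of muscle and of other cell types also differed between the groups. The mean log2 level of 10 skeletal muscle markers was 18.30 to 18.38 in prednisolone mice and 18.03 to 18.19 in untreated mice. It was 18.10 to 18.26 with spironolactone plus lisinopril and 18.16 to 18.26 with eplerenone plus lisinopril, and untreated replicate 2 was lowest. Of the 10, 1 rose with prednisolone (Ryr1, the calcium release channel). Acta1, Myh4 and Atp2a1 lay at the top of the scale, at 19.92 with differences of 0.003, and cannot show a rise. Of 10 macrophage markers 4 fell with prednisolone, and their mean level was 11.68 to 12.11 in prednisolone mice, 11.91 to 12.32 and 11.77 to 12.39 with the spironolactone and eplerenone combinations, and 12.41 to 13.22 in untreated mice, with untreated replicate 2 highest. Of 8 neutrophil markers 2 fell, with a mean level of 6.21 to 6.57 in prednisolone mice, 6.26 to 6.96 with spironolactone plus lisinopril, 5.99 to 6.47 with eplerenone plus lisinopril and 6.80 to 9.34 in untreated mice. The macrophage, neutrophil and adipocyte ranges overlapped between prednisolone and both combinations. The ranges of skeletal muscle, interferon response, endothelial and T and B cell genes did not. With prednisolone the muscle range was the higher, and the ranges of the others were the lower. Of 18 measured interferon response genes 12 fell, with a mean level of 7.64 to 7.76 in prednisolone mice, 8.07 to 8.79 with spironolactone plus lisinopril, 8.64 to 9.16 with eplerenone plus lisinopril and 8.84 to 9.77 in untreated mice. Of 6 measured adipocyte markers none passed the threshold. Their mean level was 11.44, 9.33 and 9.99 in prednisolone mice, 10.36, 9.22 and 12.03 with spironolactone plus lisinopril, 9.14, 9.81 and 10.18 with eplerenone plus lisinopril, and 9.41, 8.68 and 9.35 in untreated mice. The median difference of the 6 from untreated was 1.21 with prednisolone, 1.58 with spironolactone plus lisinopril and 0.59 with eplerenone plus lisinopril, and prednisolone replicate 1 and spironolactone replicate 3 were the highest arrays. The part of these cell types in the differences of the members was not tested. In bulk muscle, fewer cells of a type and less RNA per cell cannot be told apart.

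The snRNA members of the main sizes had lower mean values in treated mice, and none of them passed the threshold. All 61 snRNAs of 107 to 108 bases, which hold 13 distinct profiles, and all 13 of 164 to 165 bases, which hold 8, had a lower mean in each of the 3 treated groups than in untreated mice. The shared profile of Gm23934 and Rnu6 was 16.49, 16.60 and 16.81 in prednisolone mice, 16.16, 16.01 and 16.87 with spironolactone plus lisinopril, 16.63, 16.26 and 16.70 with eplerenone plus lisinopril, and 16.91, 16.92 and 17.22 in untreated mice. No treated array reached the lowest untreated array. The differences from untreated were -0.38 for prednisolone, -0.67 for spironolactone plus lisinopril and -0.49 for eplerenone plus lisinopril, each ± 0.21 (adjusted p = 0.321, 0.194 and 0.348 by limma). The profile of Gm22068 and Rnu1a1 was 18.42, 19.05 and 19.07 in prednisolone mice, 18.47, 18.55 and 19.27 with spironolactone plus lisinopril, 19.07, 18.48 and 19.14 with eplerenone plus lisinopril, and 19.25, 19.48 and 19.69 in untreated mice. Spironolactone replicate 3 reached above the lowest untreated array here, and the differences were -0.63, -0.71 and -0.58, each ± 0.26. The lowest prednisolone difference of any member was that of Gm25781, an snRNA of 108 bases on chromosome 14, with 15.63, 16.34 and 16.75 in prednisolone mice and 16.89, 17.42 and 17.22 in untreated mice (-0.94 ± 0.37, adjusted p = 0.172 by limma). Its groups did not overlap, but its prednisolone arrays spread over more than 1 log2 unit.

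**Figure D4:**
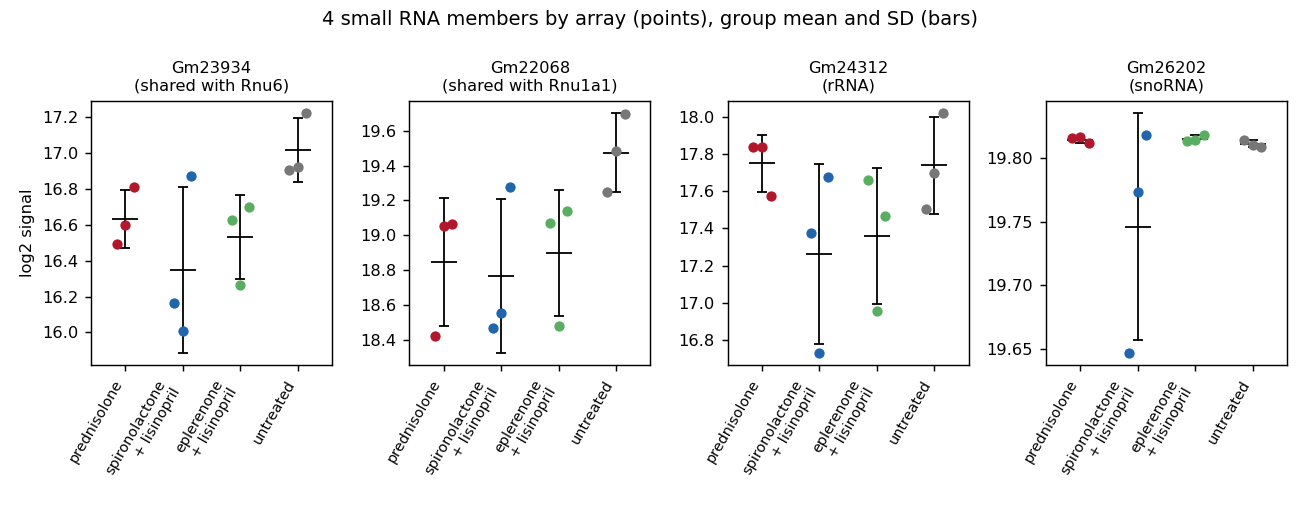
Log2 signal on each array (points, vertical axis) with group mean and SD (bars) by group for Gm23934, Gm22068, Gm24312 and Gm26202. The untreated arrays are the highest group in the first panel, spironolactone replicate 3 is the highest of its group in all 4 panels, and Gm26202 stays between 19.65 and 19.82.

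The arrays of a group spread widely in these RNAs. Untreated replicate 3 was the highest of the 12 arrays for 60 of the 61 snRNAs of 107 to 108 bases. It was also the highest for all 13 of 164 to 165 bases. Spironolactone replicate 3, the array highest in adipocyte markers, was the highest of its group for all of both classes. Prednisolone replicate 1, the next highest in adipocyte markers, was the lowest of its group for all of both classes. A relation of these snRNAs to adipocyte markers was not tested. Gm24312, the rRNA, had 17.84, 17.84 and 17.57 in prednisolone mice, 17.37, 16.73 and 17.68 with spironolactone plus lisinopril, 17.66, 16.95 and 17.46 with eplerenone plus lisinopril, and 17.50, 17.70 and 18.02 in untreated mice. Its groups overlapped and its prednisolone difference was 0.01 ± 0.24. The 8 snoRNAs had a median difference of -0.01 with prednisolone, -0.15 with spironolactone plus lisinopril and -0.11 with eplerenone plus lisinopril. Gm24494, a snoRNA of 81 bases on chromosome 3, spanned the widest range of them, with 16.90, 17.03 and 17.20 in prednisolone mice, 15.61, 16.13 and 17.39 with spironolactone plus lisinopril, 16.39, 16.45 and 17.26 with eplerenone plus lisinopril, and 16.80, 16.48 and 16.74 in untreated mice. The lncRNAs Gm25640 and Gm24105 differed from untreated by -0.10 to 0.02 in the 3 comparisons.

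**Figure D5:**
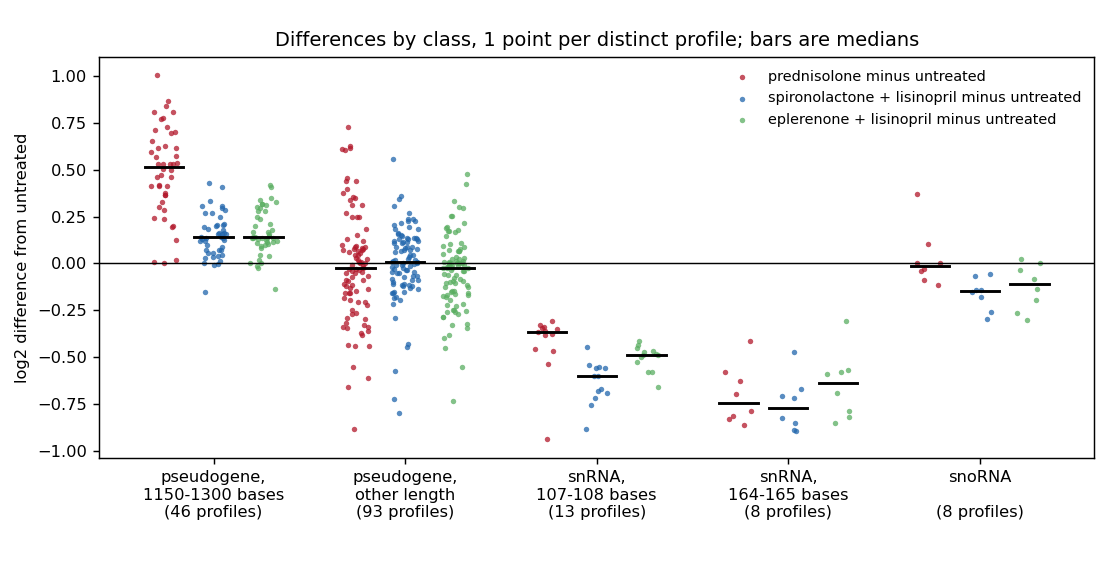
Log2 difference of each treatment from untreated mice (vertical axis) by class of member, with 1 point per distinct profile, black bars at the medians and members within 0.05 of the array maximum left out. Pseudogenes of 1150 to 1300 bases lie highest with prednisolone (median 0.52, against 0.14 with each combination), and the snRNA classes lie below 0 with all 3 treatments.

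Spironolactone plus lisinopril against untreated mice gave no member past the threshold (limma), where 0.0822% of all clusters passed. At an unadjusted p under 0.05, 9 members were higher and 76 lower, where 6.37% of all clusters were higher and 9.84% lower, and 73 of the 76 were snRNAs, 44 of which are the Rnu6 profile counted repeatedly. Counted once per distinct profile, 9 were higher and 23 lower. The smallest adjusted p was 0.181, for Gm22623, an snRNA of 107 bases on chromosome 10, with 16.36, 16.17 and 17.01 in spironolactone mice and 17.10, 17.27 and 17.42 in untreated mice (-0.75 ± 0.21). Spironolactone replicate 3 lay near the untreated arrays. Gm23924 at -0.72 and Gm22505 at -0.69, both snRNAs of 108 bases, followed with adjusted p of 0.183 and 0.194 (limma). Without spironolactone replicate 3, 45 members passed, all lower, but they hold only 2 distinct profiles.

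Eplerenone plus lisinopril against untreated mice also gave no member past the threshold (limma), where 0.0296% of all clusters passed, and 8 members were higher and 72 lower at an unadjusted p under 0.05 (6.11% and 7.33% of all clusters). Of the 72, 65 were snRNAs, and counted once per distinct profile 8 were higher and 22 lower. The smallest adjusted p was 0.223, for Gm1840 (Gpi-ps), whose eplerenone arrays lay above every untreated array (0.42 ± 0.12). Gm26127, an snRNA of 107 bases on chromosome 2, had a difference of -0.58, and Gm13226, a pseudogene of 442 bases on chromosome 4, of -0.34. Their adjusted p were 0.26 and 0.265 (limma).

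The combinations did not differ from each other past the threshold in any member (limma), nor in any of the 30412 clusters (0%). At an unadjusted p under 0.05 there were 5 members, 4 higher and 1 lower with spironolactone (1.86% and 2.62% of all clusters). Gm13226 had 16.59, 16.51 and 16.69 in spironolactone mice and 16.29, 16.24 and 16.38 in eplerenone mice, a difference of 0.29 ± 0.11. Gm13604 differed by 0.22 and Gm15682 by 0.19, and the adjusted p of all 3 was 0.998 (limma). The antagonist doses differed, 100 against 200 mg/kg per day, so the values stand side by side only.

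Set directly against spironolactone plus lisinopril, prednisolone raised 1 member, where 0.372% of all clusters rose and 0.822% passed in either direction. This was Gm4217, with a difference of 0.46 ± 0.09 (adjusted p = 0.0475 by limma) and no overlap between the arrays given above. It passed in 3 of 19 other settings tried. Gm8824 differed by 0.43 (adjusted p = 0.0566) and Gm2383 by 0.36 (adjusted p = 0.059), both by limma and not past the threshold. At an unadjusted p under 0.05, 49 members were higher and 6 lower (8.84% and 7.45% of all clusters).

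Against eplerenone plus lisinopril, prednisolone gave no member past the threshold (limma), where 0.608% of all clusters passed, with 46 members higher and 1 lower at an unadjusted p under 0.05 (6.61% and 5.85% of all clusters). Gm8824 came nearest, at 0.45 (adjusted p = 0.0557), followed by Gm4217 at 0.41 (adjusted p = 0.0792) and Gm2383 at 0.31 (adjusted p = 0.12), all by limma. All 39 members that rose against untreated mice had a higher mean with prednisolone than with either combination, with medians of 0.42 over spironolactone plus lisinopril and 0.37 over eplerenone plus lisinopril. The 39 were picked for a prednisolone rise on the same prednisolone arrays, so this order and these medians are partly built in and are only a description. Of the tests of the 39 against either combination, only that of Gm4217 against spironolactone plus lisinopril passed (adjusted p = 0.0475 by limma), and in 3 of 19 other settings. That 1 call is 0.4% of the members, near the 0.372% of all clusters that rose. For the others no difference between treatments was shown.

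The study's design names a fold of 2, which is 1 on the log2 scale, and 2 members reached it in any of the 6 comparisons. Gm5652 did so between prednisolone and untreated mice, where 1.69% of all clusters did. Gm10156, a pseudogene of 1018 bases on chromosome 7, did so between prednisolone and spironolactone plus lisinopril, where 0.546% of all clusters did. In the other comparisons no member did, where the share of all clusters was 0.792% for spironolactone plus lisinopril against untreated, 0.654% for eplerenone plus lisinopril against untreated, 0.694% for prednisolone against eplerenone plus lisinopril and 0.0822% between the combinations. The log2 signal of Gm10156 was 16.09, 16.57 and 17.23 in prednisolone mice, 17.99, 17.42 and 17.48 with spironolactone plus lisinopril, 17.52, 17.00 and 17.28 with eplerenone plus lisinopril, and 17.70, 17.69 and 17.15 in untreated mice. The prednisolone arrays lay below every spironolactone array, and they spread over more than 1 log2 unit. The difference of -1.00 ± 0.27 did not pass (adjusted p = 0.108 by limma). Without prednisolone replicate 1 or without prednisolone replicate 2, no member reached a fold of 2, and without spironolactone replicate 3, 12 did.

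Predicted genes known from interferon and immune responses were not among the brightest. Of 10 Gm-numbered genes listed as related to the interferon-inducible GTPases, which act against intracellular pathogens, 7 were measured and 2 fell with prednisolone, and the brightest stood at rank 564 of the 6780. Of 6 listed as related to major histocompatibility complex class I genes, which present peptides to T cells, 3 were measured and 1 fell, and the brightest stood at rank 2527.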

How the data were processed

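Each deposited value is the log2 signal of a transcript cluster. The submitters' processing notes name RMA, Affymetrix Expression Console and Transcriptome Analysis Console; their versions and the genome build were not given in the sources used here. On every array 1.27% to 1.34% of clusters lie above 16, and no source used here describes the scaling behind such values, so folds hold for the deposited scale. RNA was amplified and hybridised to 12 single-channel arrays, 3 per group, and this number limits the precision.

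A cluster was assigned a gene where the platform table gave exactly 1 distinct symbol (30412 of 65587 clusters). Members were matched to RefSeq (GRCm38.p6) by gene ID (10), symbol (232) or synonym (8); for 249 of 250 the chromosome of the cluster and of RefSeq were the same. Group means over all 12 arrays were fitted with limma 3.58.1 in R 4.3.3 (lmFit, eBayes without an intensity trend; 8 residual and 2.94 prior degrees of freedom), with two-sided tests for 6 comparisons and an F-test, and Benjamini-Hochberg adjustment over the 30412 clusters at 0.05. The fit was tested on simulated data. Tables and plots used Python 3.11.15 with pandas 2.3.3, numpy 2.4.6 and matplotlib 3.10.9.

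Named members are the 10 brightest, the 10 largest changes past the threshold in each direction of a comparison (with the smallest p filling up to 3), the 10 smallest F-test p, renamed members that passed, and 3 symbols on each side of the limit; further members were named for their type or size after their values were seen. The members, the 8 marker lists and the 2 lists of predicted genes were chosen with earlier results of these data known. Of the marker lists, T and B cell (1 of 7 measured fell with prednisolone), endothelial (1 of 7 fell) and erythroid genes (0 of 2) are given here; the others stand with the results. Alternatives were quantile normalization, equal array medians, the dimmest 25% left out, all 65587 clusters, an intensity trend with a robust prior, the replicate number as a block, only the 2 groups compared, and each array left out.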

Additional observations from a re-analysis of the deposited data

Results flagged for a closer look

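Gm4217 was flagged because the effects of 2 treatments on it differed by a direct test. This 1 call is 0.4% of the members, near the 0.372% of all clusters that rose in that comparison. Prednisolone and spironolactone plus lisinopril, each against untreated mice, moved it by 0.53 and 0.07, and the difference of 0.46 between them had an adjusted p of 0.0475 (limma), with all 3 prednisolone arrays above all 3 spironolactone arrays. It passed in 3 of 19 other settings, over which the adjusted p ran from 0.0353 to 0.477 (limma) and the difference from 0.27 to 0.53.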

How the results depend on the processing

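The directions of named members held in all 627 values computed under alternatives. Many settings cannot change a difference: other cluster sets, the trend, the replicate block, only the 2 groups, or dropping arrays of other groups. Where groups do not overlap, dropping any array cannot reverse it either, so these directions are no test. Of the 627 values, 534 kept their side of the threshold, 85 lost a call and 8 gained one. For prednisolone against untreated mice the count of 39 was 0 with only the 2 groups compared and 3 to 48 with an array left out. The replicate numbers do not pair the mice (the correlations of same-numbered arrays ran from -0.24 to 0.16, 4 of 18 exceeded 0.1, and 3 of 12 arrays correlated best with their own number); with the replicate block 28 passed, 25 higher, all among the 39, and 3 lower, all snRNAs, and that fit gave 0 in the comparison of prednisolone with spironolactone plus lisinopril and 0 in the F-test. Prednisolone against spironolactone plus lisinopril, with 1 reported, gave 0 with quantile normalization, equal medians, all clusters, the trend or only the 2 groups, 3 with dim clusters left out, and 0 to 7 with an array left out. Among all clusters 250 passed there in the main fit and 23 to 328 with an array left out. Prednisolone against eplerenone plus lisinopril gave 1 with dim clusters left out and 0 to 1 with an array left out. Among all clusters 185 passed in its main fit and 27 to 264 with an array left out. Spironolactone plus lisinopril against untreated gave 0 to 45 with an array left out, the highest without spironolactone replicate 3. The F-test, with 2 reported, gave 0 with quantile normalization, all clusters or the trend, 1 with equal medians, 8 with dim clusters left out, and 0 to 46 with an array left out. The fold of 2, with 2 reported, gave 1 with quantile normalization or equal medians, and 0 to 12 with an array left out, an alternative chosen after seeing the data. Counting 1 member per profile, or leaving out members near the array maximum, could not change the count of 39. Both were added after seeing the data, and the 39 hold 39 profiles, none of them near the maximum. The causes were not tested, except that dropping an array or a group leaves fewer samples. Members within 0.05 of the array maximum cannot show a rise, and 3 arrays per group limit what small differences can pass.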

Other observations

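A symbol's clusters did not always behave alike. Gm5523, a transcribed pseudogene of 1245 bases that rose with prednisolone by 0.50 in its cluster on chromosome 1, had another cluster, on the Y chromosome and outside the rule, with a mean of 19.92 at the array maximum and a difference of 0.004. Rnu6 had a dimmer cluster, with a mean of 13.76, whose differences from untreated mice were 0.30 ± 0.29 with prednisolone, -0.65 ± 0.29 with spironolactone plus lisinopril and -0.21 ± 0.29 with eplerenone plus lisinopril, against -0.38, -0.67 and -0.49 for the profile it shares with 44 members. The 2 classes of snRNA followed each other over the arrays: the Pearson r between profiles of 107 to 108 and of 164 to 165 bases had a median of 0.92 and a range of 0.84 to 0.97 over 12 shared arrays. The nearest profile to Gm24312, the rRNA, was Gm23647, a pseudogene of 109 bases, at an r of 0.97. The nearest to Gm1840 (Gpi-ps) was Gm3809 at 0.95, and the nearest to Gm8824 was Gm14111, of 1209 bases, at 0.99.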
